A study of Mus musculus with 9 samples.

Results

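Ndufa1, Cox6c, Sdhc and Sdhd are nuclear genes for subunits of the mitochondrial respiratory chain, chosen here by name: Ndufa1 from a table of MGH-CP1 against vehicle, and Cox6c, Sdhc and Sdhd from a table of dinaciclib against vehicle. They are 4 of the 720 genes in the 2 tables. The cells were EHE17, a mouse line of endothelial tumour cells with the genotype TC+/+ Cdkn2a -/-, which all groups share. TC is not spelled out in the labels and is read here, from background on epithelioid hemangioendothelioma models, as an allele of the TAZ-CAMTA1 fusion. Cells received DMSO as vehicle, 10 µM MGH-CP1 or 300 nM dinaciclib, the compounds for 16 h, with 3 biological replicates in each of the 3 groups. MGH-CP1 blocks the palmitoylation of TEAD transcription factors, and dinaciclib is an inhibitor of several cyclin-dependent kinases, including the transcriptional kinase CDK9. RNA was selected on poly-T beads and sequenced without a strand mark.

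The respiratory chain passes electrons from NADH and succinate to oxygen and drives ATP synthase with the proton gradient that results. Complex I takes electrons from NADH, complex II (succinate dehydrogenase) takes them from succinate and is also an enzyme of the citric acid cycle, and complex IV (cytochrome c oxidase) hands them to oxygen. Most subunits come from nuclear genes and are imported, while a core set is encoded by the mitochondrial genome. Ndufa1 encodes a small membrane subunit of complex I, Sdhc and Sdhd the pair of membrane anchors of complex II that hold its haem and bind ubiquinone, and Cox6c a small membrane subunit of complex IV.

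Both tables hold only genes picked by the authors for a change (every listed gene has a log2 fold change of 1 or more in size), 471 genes for MGH-CP1 and 251 for dinaciclib, the second restricted to genes with a tumour-type entry. No member is in both tables, so the compounds cannot be compared with each other at any of these genes, and both comparisons use the same 3 vehicle libraries. Total counts per library were 31852117 to 40020833 in vehicle, 19934012 to 24310817 with MGH-CP1 and 2541162 to 3316779 with dinaciclib, the mean vehicle total being 12.2 times the dinaciclib mean. Levels are given as normalised counts (each count over its library's size factor, as set by the authors) and are relative to the rest of the library; fewer cells of a kind and less RNA per cell cannot be told apart in bulk RNA. Of 14 endothelial markers, Kdr and Fli1 are in the dinaciclib table (8417 ± 280 normalised counts for Kdr and 1138 to 1176 for Fli1 in vehicle) and Vwf in the MGH-CP1 table; the rest were not analysed here. With dinaciclib Kdr was at 1789 ± 222 (log2 change −2.24) and Fli1 at 153 ± 111 (−2.88, SD, n = 3), both lower, and their part in the results was not tested.

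The coding sequences of the members are short, and the shortest ones are shown because length and near-copies bear on how their reads are counted. They are read 5′ to 3′ from the GENCODE M21 transcripts Cox6c-201 (503 bases) and Ndufa1-201 (419 bases). In Ndufa1 the capitals mark the start and stop codons. In Cox6c they mark the 145 bases covered by words of 50 bases that also occur in Cox6c2, a processed pseudogene.
Ndufa1: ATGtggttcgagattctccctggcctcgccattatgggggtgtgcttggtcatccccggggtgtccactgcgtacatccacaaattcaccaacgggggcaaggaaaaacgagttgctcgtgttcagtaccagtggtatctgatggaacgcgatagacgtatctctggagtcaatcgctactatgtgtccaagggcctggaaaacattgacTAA
Cox6c: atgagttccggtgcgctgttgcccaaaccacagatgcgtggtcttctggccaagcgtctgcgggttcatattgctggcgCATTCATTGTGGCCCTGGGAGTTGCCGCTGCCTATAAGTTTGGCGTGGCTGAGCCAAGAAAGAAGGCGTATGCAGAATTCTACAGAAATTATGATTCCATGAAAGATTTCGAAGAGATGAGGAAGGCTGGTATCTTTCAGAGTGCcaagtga
Their coding lengths are 213 bases for Ndufa1 and 231 for Cox6c, against 480 for Sdhd and 510 for Sdhc. Of the 454 words of 50 bases in Cox6c-201, 96 (21.1%) are shared with Cox6c2, which is in neither table. Ndufa1-201 and Sdhd-201 share none of their words with another annotated gene, and Sdhc-202 shares 3 of 3122. How the authors' counting treated reads with several matches is not given in the sources used here.

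With MGH-CP1, the complex I gene Ndufa1 fell 2.07-fold. Its normalised count was 718, 687 and 604 in vehicle replicates 1 to 3 and 363, 360 and 250 in MGH-CP1 replicates 1 to 3. The groups did not overlap, and MGH-CP1 replicate 3 lay below the other two of its group. The means were 324 ± 64.6 against 670 ± 59.1 (SD, n = 3). The log2 change was −1.05 with SE 0.170 (95% interval −1.42 to −0.67), and the adjusted p was 0.000273 (edgeR's quasi-likelihood test, Benjamini-Hochberg adjusted). The call stands beside a background of 100% of the 355 tested genes called, 50.7% lower and 49.3% higher, since the authors had picked the table's genes on these libraries, so the p adds no independent evidence. The groups did not overlap for 97.7% of the 471 listed genes either (42.3% lower, 55.4% higher). The raw counts behind these values were 814, 837 and 865 in vehicle and 313, 255 and 210 with MGH-CP1.

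**Figure D1:**
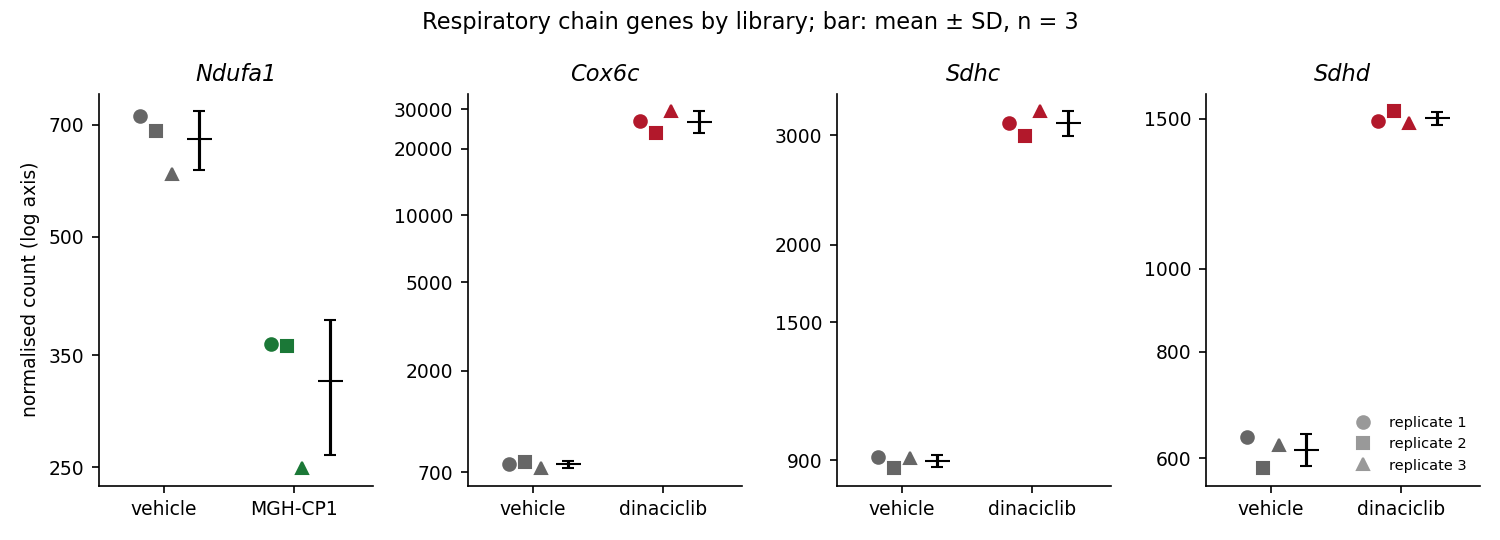
Normalised counts (log axis, its range set separately for each gene) of Ndufa1, Cox6c, Sdhc and Sdhd in each library, with the marker shape giving the replicate and the bar the mean ± SD of n = 3. Vehicle and compound libraries do not overlap for any of the 4 genes; Ndufa1 is lower with MGH-CP1, and the other 3 are higher with dinaciclib.

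The fall of Ndufa1 was small for its table: 13 of the 201 genes listed as lower by the authors had a smaller change in the authors' deposited table, where its log2 fold change was −1.05 and the median size among lower genes was 1.51. In vehicle it was well expressed for that table, at 57.0 ± 4.87 FPKM (fragments scaled to gene length and library total, SD, n = 3), and 19 of the 471 genes had a higher vehicle FPKM, the table's median being 0.499. It also lies at the short end of the table, with the second-shortest coding sequence of 210 protein-coding genes that have one in the annotation, after Tomm7. The rRNA gene CT010467.1, a sign of how far rRNA was removed, took 0.0402% to 0.125% of counts in vehicle libraries and 0.342% to 0.803% in MGH-CP1 libraries. Among the MGH-CP1 libraries it was lowest in replicate 3, the library with the least Ndufa1. The part of rRNA share and of transcript length in the fall was not tested.

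The other nuclear oxidative phosphorylation gene in the MGH-CP1 table, Atp5k, was lower too. The mitochondrially encoded genes that could be tested were higher, some of them having passed the count filter only through their MGH-CP1 libraries. Of 36 nuclear genes for complex I on the list, 1 was in the table (Ndufa1), and of 17 for ATP synthase 1 was, Atp5k. None of the 4 genes of complex II, the 10 of complex III with cytochrome c or the 17 of complex IV was in this table, nor were any of 43 assembly factors, 24 citric acid cycle genes, 36 genes of mitochondrial genome expression or 21 glycolysis genes. Atp5k, which encodes the small e subunit of ATP synthase, stood at 246, 210 and 138 in MGH-CP1 replicates 1 to 3 against 625, 537 and 533 in vehicle. Its log2 change was −1.51 with SE 0.200 (adjusted p 8.53e-05, edgeR's quasi-likelihood test, Benjamini-Hochberg adjusted). Tomm7, a small subunit of the import pore of the outer membrane and 1 of 31 import and carrier genes looked for, stood at 396, 376 and 296 against 932, 952 and 895, a log2 change of −1.38 with SE 0.149. In Ndufa1, Atp5k and Tomm7 alike, MGH-CP1 replicate 3 was the lowest library of its group. That is not particular to them: it was also the lowest for Ddit4, Vwf and mt-Rnr1. The lists do not cover every gene for a mitochondrial protein. Outside them, and picked after their values were seen, Chchd10, Lars2, Mthfd2 and Aldh1l2 were higher, with log2 changes of 2.02, 2.20, 1.204 and 1.32. Pet100, which helps to assemble cytochrome c oxidase and is also outside the lists, was lower (−1.16). Genes outside the lists were not counted in full, so these give no balance of directions.

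Of 37 genes of the mitochondrial genome, 6 were in the MGH-CP1 table, and 4 had enough counts to test. All 4 rose, 0 fell, and their median log2 change was 2.00, beside 49.3% of all tested genes called higher. Of these 4, mt-Th and mt-Ts2 would not have passed the count filter on their vehicle libraries alone. Both were tested only because they were high with MGH-CP1, so the count and the median are partly set by the filter. The log2 changes of mt-Rnr1 and mt-Tc were 1.31 and 1.11. The median over all tested genes was −1.01, but it lies at the edge of the gap left by the authors' selection and turned to 0.94 to 1.02 without 1 of the vehicle libraries and to 1.15 with no count filter. None of the 6 encodes a respiratory chain protein: they are the small-subunit rRNA gene mt-Rnr1 and the tRNA genes mt-Tc, mt-Th, mt-Ts2, mt-Ti and mt-Tq. The rRNA gene mt-Rnr1 reached 5495, 7793 and 4121 against 2624, 2239 and 2143, and the cysteine tRNA gene mt-Tc 341, 435 and 403 against 205, 179 and 163. The tRNA genes mt-Ti and mt-Tq had at most 11 and 10 counts in a library and were not tested. Ppargc1a, a coactivator that drives mitochondrial biogenesis and 1 of 15 such regulators on the list, was higher at 52.4 ± 10.3 against 18.2 ± 5.01, a log2 change of 1.51 with SE 0.300. Of 17 hypoxia genes Vegfa was higher (321 ± 24.3 against 138 ± 28.2) and Ddit4 lower (417 ± 75.6 against 947 ± 14.1). The mitochondrial RNAs here are rRNA and tRNA in libraries selected on poly-T beads, and the rRNA gene CT010467.1 was also higher with MGH-CP1, at 0.614%, 0.803% and 0.342% of counts in replicates 1 to 3. The rRNA gene mt-Rnr1 had the same order of libraries, highest in replicate 2 and lowest in replicate 3. The tRNA genes mt-Th (78.8, 42.4 and 118) and mt-Ts2 (88.1, 50.9 and 126) had another order, lowest in replicate 2 and highest in replicate 3. Their vehicle means were low, at 12.2 ± 4.76 and 10.4 ± 1.88, and their log2 changes were 2.69 and 3.06. The part of rRNA carried into the libraries in these differences was not tested.

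**Figure D2:**
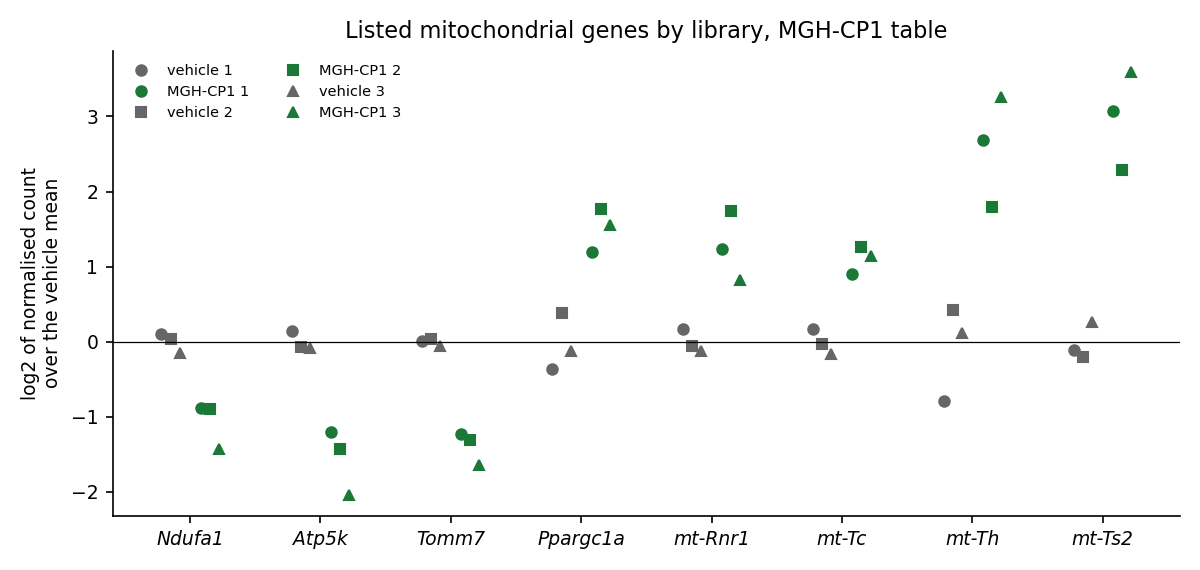
Log2 of the normalised count over the gene's vehicle mean for the 8 tested genes of the MGH-CP1 table that are on the respiratory and mitochondrial lists, with vehicle libraries in grey, MGH-CP1 libraries in green and the marker shape giving the replicate. Ndufa1, Atp5k and Tomm7 lie below 0 in all 3 MGH-CP1 libraries, and Ppargc1a and the 4 mitochondrially encoded genes lie above it.

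With dinaciclib, the listed members of complexes II and IV were all higher relative to the rest of the library, Cox6c by far the most. The 3 members passed the test (edgeR's quasi-likelihood test, Benjamini-Hochberg adjusted), as did 100% of the 248 tested genes, of which 25.0% were called higher and 75.0% lower. With scaling factors that take most listed genes as unchanged (TMM), 70 of 166 called genes (42.2%) were higher and 96 lower. Groups that did not overlap, as in all 3 members, were seen in 98.4% of the 251 listed genes, 24.3% higher and 74.1% lower. The median log2 change of all tested genes was −1.83. Of the lists looked for, 2 of 4 genes of complex II and 1 of 17 of complex IV were in this table, and none of the complex I, complex III, ATP synthase, mitochondrially encoded, assembly, citric acid cycle, import or biogenesis genes was. The table holds only cancer-annotated genes, which Sdhc and Sdhd entered as genes of paraganglioma and pheochromocytoma and Cox6c as a gene of uterine leiomyoma.

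Sdhc, the larger of the complex II anchors listed, stood at 3133, 2987 and 3276 normalised counts in dinaciclib replicates 1 to 3 and at 912, 876 and 908 in vehicle. The lowest dinaciclib library was 3.27 times the highest vehicle library, and the means were 3132 ± 144 against 899 ± 19.9 (SD, n = 3). The log2 change was 1.80 with SE 0.0785 (95% interval 1.62 to 1.98), with adjusted p = 1.26e-07 (edgeR's quasi-likelihood test, Benjamini-Hochberg adjusted). Sdhd, the partner anchor, stood at 1490, 1529 and 1481 against 635, 585 and 622, with means of 1500 ± 25.8 and 614 ± 26 (SD, n = 3). Its log2 change was 1.29 with SE 0.105 (95% interval 1.05 to 1.53), with adjusted p = 4.33e-06 (edgeR's quasi-likelihood test, Benjamini-Hochberg adjusted). Replicates of Sdhd were close: the highest dinaciclib library was 1.03 times the lowest, while for Sdhc this was 1.10 and for Cox6c 1.25.

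Cox6c stood at 26536, 23428 and 29347 normalised counts in dinaciclib replicates 1 to 3 and at 763, 781 and 733 in vehicle. The means were 26437 ± 2961 against 759 ± 24.6 (SD, n = 3), 34.8-fold higher, and the lowest dinaciclib library was 29.99 times the highest vehicle library. The log2 change was 5.12 with SE 0.116 (95% interval 4.86 to 5.39), with adjusted p = 1.55e-08 (edgeR's quasi-likelihood test, Benjamini-Hochberg adjusted). No other of the 248 genes had a smaller unadjusted p. As a share of all counts, Cox6c went from 0.00735% ± 0.000238 in vehicle to 0.281% ± 0.0328 with dinaciclib (SD, n = 3). Its raw counts alone were higher despite the shallower libraries, at 7175, 8211 and 8959 against 2350, 2588 and 2843. That held for 11 of the 251 listed genes (4.38%), and in that order of raw ratios Cox6c came second, after Fstl3. The raw counts of Sdhc (847, 1047 and 1000 against 2809, 2901 and 3522) and Sdhd (403, 536 and 452 against 1954, 1937 and 2415) were lower with dinaciclib, so the direction given for them rests on the library scale. The part of the depth gap in these differences was not tested.

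**Figure D3:**
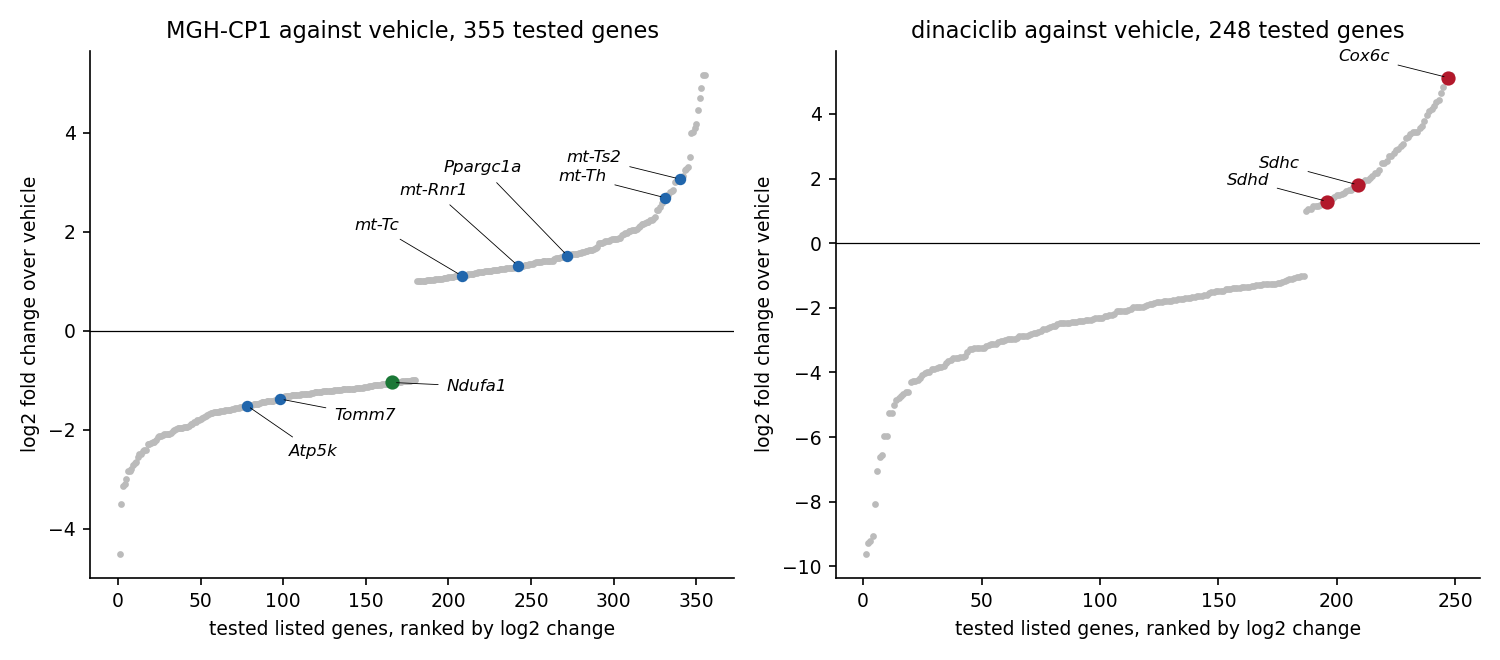
Log2 fold change over vehicle (y axis) of every tested gene, ranked (x axis), for MGH-CP1 (355 genes, left) and dinaciclib (248 genes, right); the large green or red points are the respiratory chain members and the blue points other genes of the respiratory and mitochondrial lists. Ndufa1 at −1.05 lies near the upper end of the lower branch, and Cox6c at 5.12 near the top of all dinaciclib genes, above Sdhc at 1.80 and Sdhd at 1.29; the gap around 0 is the authors' selection.

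The library scale matters most for the dinaciclib members, so their values are also given relative to the median of the tested genes, which the authors had picked for change. TMM factors moved the median of all tested genes by 1.61 on the log2 scale and total counts as library sizes moved it by 0.13. Against that median Cox6c lay higher by 6.95 with the authors' size factors and 6.98 with TMM. Sdhc lay higher by 3.63 and 3.66, and Sdhd by 3.12 and 3.14. Another library scale shifts all genes nearly alike, so these pairs are close by construction and are no check on the scale. In the authors' deposited table, 61 of the 65 higher genes had a smaller log2 change than Cox6c (5.12), 22 had a smaller one than Sdhc (1.80) and 8 a smaller one than Sdhd (1.29), the median of the higher genes being 2.48.

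The 3 members did not rise by the same amount, and ratios of counts within a library show this with no scale at all. The Cox6c to Sdhc ratio was 0.837, 0.892 and 0.807 in vehicle replicates 1 to 3 and 8.47, 7.84 and 8.96 in dinaciclib replicates 1 to 3. The log2 difference was 3.32 with SE 0.0699, a 9.96-fold shift. The Cox6c to Sdhd ratio went from 1.24 ± 0.0853 to 17.6 ± 2.25 (SD, n = 3), a log2 difference of 3.83 with SE 0.122. Between the anchors the shift was far smaller: the Sdhc to Sdhd ratio was 1.44, 1.498 and 1.46 in vehicle and 2.10, 1.95 and 2.21 with dinaciclib, a log2 difference of 0.51 with SE 0.0549, or 1.42-fold. None of the 3 ratios overlapped between groups. Each gave p = 0.1 by a two-sided exact permutation test and 0.1 after Benjamini-Hochberg adjustment over the 3 ratios, which is the smallest p that 3 against 3 libraries allow, so the threshold of 0.05 could not be reached.

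**Figure D4:**
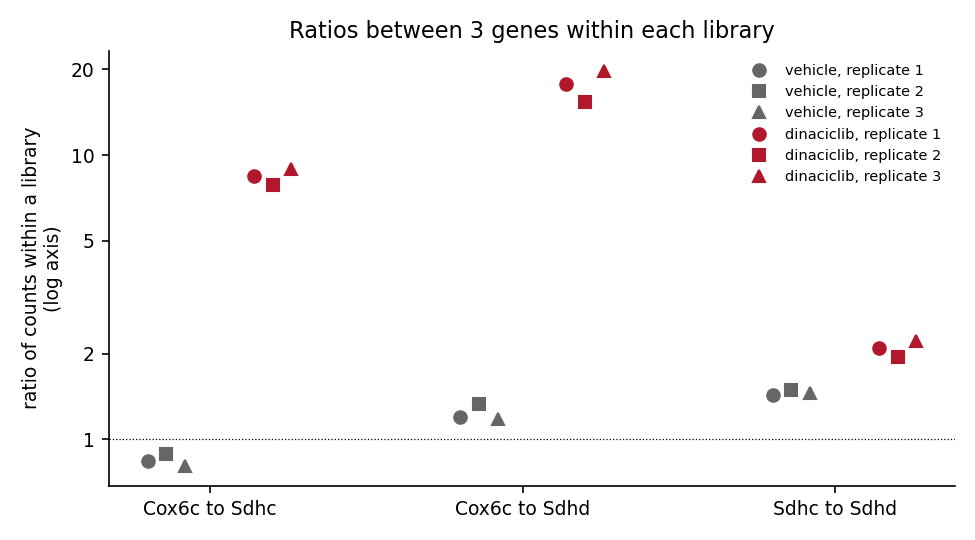
Ratios of raw counts between Cox6c, Sdhc and Sdhd within each library (log axis), with vehicle in grey, dinaciclib in red and the marker shape giving the replicate; the dotted line is a ratio of 1. The Cox6c to Sdhc ratio crosses from below 1 in vehicle to 7.84 to 8.96 with dinaciclib, and the Sdhc to Sdhd ratio moves only from 1.44 to 1.498 up to 1.95 to 2.21.

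In vehicle the 4 genes can be ordered per length, since FPKM in both tables uses the same library totals. Ndufa1 was highest at 57.0 ± 4.87 FPKM (51.6 to 61.0), followed by Sdhd at 48.3 ± 1.98 (46.1 to 49.8), Sdhc at 26.8 ± 0.561 (26.1 to 27.1) and Cox6c at 20.6 ± 0.667 (19.9 to 21.2), all with n = 3 and no overlap between neighbours in that order. This order depends on the gene lengths the authors used. They are 419 bases for Ndufa1, 1231 for Sdhd and 3250 for Sdhc, close to a well-supported coding transcript of each, but 3567 for Cox6c, where the annotation holds a retained-intron transcript of 3038 bases beside the message of 503 bases. At the length of Cox6c-201 the vehicle level of Cox6c would be 146 ± 4.73 FPKM, above the other three. With dinaciclib the deposited FPKM were 788 ± 91.9 for Cox6c, 129 ± 1.58 for Sdhd and 102 ± 5.20 for Sdhc. The length cancels in every fold change above.

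All 4 genes lie on the minus strand, and Ndufa1 and Sdhd each start next to a gene that runs the other way. On GRCm38, Ndufa1 (ENSMUSG00000016427) spans chromosome X, 37187588 to 37191163, with 81 bases between it and the splicing factor gene Rnf113a1. Sdhc (ENSMUSG00000058076) spans chromosome 1, 171127165 to 171150603. Sdhd (ENSMUSG00000000171) spans chromosome 9, 50596357 to 50603812, with 97 bases between it and Timm8b, which encodes a small chaperone of mitochondrial import. A protein-coding start in the other direction within 1000 bases was found for 6.76% of all 22028 protein-coding genes of the annotation, for 8.40% of those in the dinaciclib table and for 4.74% in the MGH-CP1 table. Cox6c (ENSMUSG00000014313) spans chromosome 15, 35925886 to 35938246, and 5344 bases of its span overlap the end of Vps13b on the opposite strand. The overlap ends at 35931229 and lies outside Cox6c-201, which covers 35931976 to 35938246. Rnf113a1, Timm8b and Vps13b are in neither table, and without strand marks reads in the overlap cannot be assigned to a strand.

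The RefSeq promoter table (GRCm38.p6) holds 2 of the 4 members, Sdhd and Ndufa1; Cox6c and Sdhc are not in it. The 250 bases before the start were searched on both strands for letters typical of factors that serve nuclear mitochondrial genes: the NRF1-type palindrome, CCGGAAG for ETS factors such as GABP, and ATGGCGG for YY1, with TATAAA and CCAAT as general promoter elements. RefSeq puts the Sdhd start at 50603849, upstream of the end of the GENCODE gene, so the stretch to Timm8b is 60 bases here. The sequences show the stretch between the Sdhd start and Timm8b, and the windows around matches inside the neighbouring genes, all on the minus strand with the match in capitals. Each match reads on the other strand, so the capitals are the reverse complement of the letters searched.
Sdhd, chr9:50603850-50603909, ETS type: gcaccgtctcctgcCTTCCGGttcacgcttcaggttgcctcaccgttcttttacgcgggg
Sdhd, chr9:50603909-50603938, NRF1 type: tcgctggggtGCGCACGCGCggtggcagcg
Ndufa1, chrX:37191381-37191410, YY1 type: gagaaagttgctCCGCCATttagagatccc
In Sdhd 39 bases lie between the RefSeq start and the ETS-type match and 69 between it and the NRF1-type match. They do not overlap each other, and the NRF1-type match lies within Timm8b. The NRF1-type letters occur in 3.74% and the ETS-type letters in 6.91% of 32851 promoters of that length. The YY1-type match of Ndufa1 lies 153 bases before its RefSeq start, within Rnf113a1, and 2.21% of promoters hold it. This start too lies upstream of the GENCODE one, so the stretch to Rnf113a1 is shorter here than between the GENCODE genes. Neither promoter has TATAAA or CCAAT, which 12.4% and 33.8% of promoters hold. These are matches of letters and no measurement of binding.

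The members have short coding sequences for their tables. The choice of genes did not use length itself, but it took genes for membrane subunits, which are small for Ndufa1 and Cox6c. Short length is thus not independent of the choice. Cox6c has the shortest coding sequence of the 250 protein-coding genes in the dinaciclib table, and 6 genes are shorter than Sdhd and 11 shorter than Sdhc. The median coding length there was 1454 bases for the 64 higher genes and 2181 for the 186 lower ones. Across the 250 genes, however, coding length and the authors' log2 fold change had a Spearman correlation of −0.07, and in the MGH-CP1 table, across 210 genes, −0.08. These describe genes of the same libraries, which are not independent replicates.

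**Figure D5:**
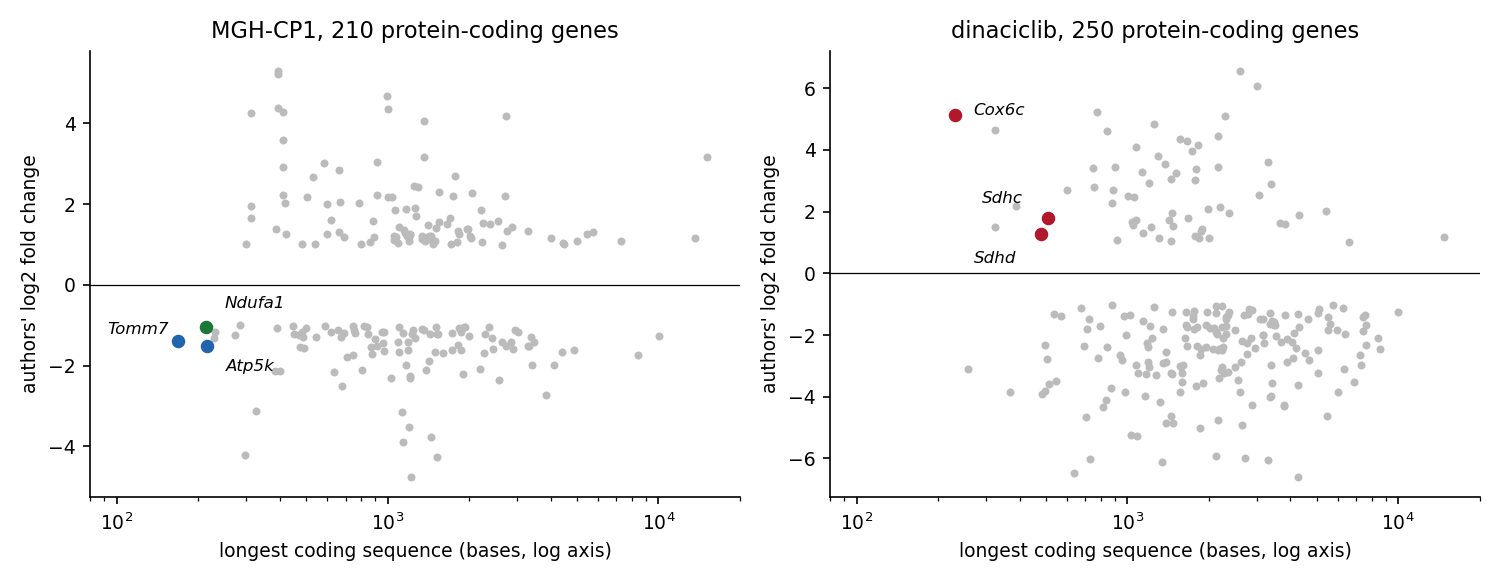
The authors' log2 fold change (y axis) against the longest annotated coding sequence (bases, log axis) of the protein-coding genes in the MGH-CP1 table (210 genes, left) and the dinaciclib table (250 genes, right), with the respiratory chain members in green or red and Atp5k and Tomm7 in blue. The members sit at the short end in both panels, on the lower side with MGH-CP1 and on the higher side with dinaciclib.

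Likeness of pattern was measured as the Euclidean distance of log2(normalised count + 1), centred on the vehicle mean, over the 6 libraries of a table, and the nearest 3 genes of each member are named. Centred in this way, the distance mostly reflects the difference in log2 change. Near genes are thus mainly those that changed by a like amount, and the medians are large because the listed genes were picked for change. The nearest to Ndufa1 of 354 genes were 4921531C22Rik, Ddit4, a stress-induced inhibitor of mTORC1, and the chloride channel family gene Clic5, at distances of 0.293, 0.308 and 0.320 (median of all 3.602). The nearest to Cox6c of 247 genes were the transferrin receptor gene Tfrc (0.314; log2 change 5.10), the activin-binding protein gene Fstl3 (0.317; 5.21) and the endoplasmic reticulum chaperone gene Calr (0.544; 4.83), with a median distance of 12.3. For Sdhc they were the RNA-binding protein genes Taf15 (0.163) and Nono (0.186) and the ETS factor gene Etv4 (0.271), and for Sdhd the focal adhesion gene Lpp (0.292), the ubiquitin ligase gene Traf7 (0.315) and the purine synthesis gene Atic (0.378). Neither Sdhc nor Sdhd was among the 3 nearest of the other. Of 17 hypoxia genes, 2 were in the dinaciclib table and both were lower, beside 75.0% of all tested genes. Vhl, which marks hypoxia-inducible factors for destruction, was at 24.0 ± 15.7 against 269 ± 9.03. Arnt, the partner subunit of those factors, was at 298 ± 30.5 against 713 ± 9.39.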

How the data were processed

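DESeq2 1.20.0, featureCounts 1.5.0-p3, HISAT2 2.0.5 and fastp are named in the submitters' processing notes. The genome build and the gene annotation were not given in the sources used here. GRCm38 was assumed because all 720 gene identifiers occur in GENCODE M21, 704 of them at identical coordinates. Per the file headers, the deposited columns are raw counts, a normalised signal (on the values, count divided by 1 size factor per library), FPKM, log2 fold changes, and p-values of the authors' comparison. Library totals were recovered from count, FPKM and gene length.

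Counts were tested with edgeR 4.0.16 (R 4.3.3, quasi-likelihood, two-sided, filterByExpr with a minimum count of 10) on each whole table of 6 libraries, scaled by the authors' size factors, with Benjamini-Hochberg adjustment at 0.05. SE is the absolute log2 change over the square root of F. The script was tested on simulated data. The dispersion comes from genes picked for change. Replicate pairs differed beyond sampling noise (chi-square over degrees of freedom 5.92 to 234); p-values measure the spread between these replicates.

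Members and the 15 gene lists (338 symbols, 337 in the gene name table) were chosen with earlier results of these data known. Named were the members, all listed respiratory and mitochondrial genes, up to 4 genes of other lists, the 3 nearest genes by pattern, and genes overlapping a member or starting within 1000 bases. The surroundings of the Sdhc start are not reported here. Of cell markers other than endothelial (16), Cd68 rose and Lyz2 fell with MGH-CP1 (54.8 ± 17.6 against 12.2 ± 5.08 and 92.8 ± 25.7 against 187 ± 16.9, n = 3); none was in the dinaciclib table. Vwf was at 20.5 ± 9.20 against 66.9 ± 9.07. Alternatives were TMM, total counts, DESeq2 1.42.0, no filter, a replicate block and leaving out replicates. Permutation tests used scipy 1.17.1, figures matplotlib 3.10.9.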

Additional observations from a re-analysis of the deposited data

How the results depend on the processing

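In 66 of 66 alternative results for the 4 genes and the 2 counts of called genes, the direction and the side of the threshold stayed the same, counts staying within 1.5 times. The authors had picked these genes for change on the same libraries, so this outcome was largely set in advance. It is no independent check of the changes. The 3 ratios kept their direction in 21 alternatives, but could not pass the threshold in any, and FPKM gives the same differences as counts by construction. The log2 change of Ndufa1 ranged from −1.14 to −0.89, with adjusted p from 4.36e-06 to 0.00162 over edgeR and DESeq2. Leaving out 1 library at a time gave 5.04 to 5.20 for Cox6c, 1.77 to 1.83 for Sdhc and 1.26 to 1.31 for Sdhd, while TMM factors gave 6.77, 3.44 and 2.92. TMM lowered the dinaciclib genes called from 248 to 166. The replicate block gave log2 changes of −1.06 for Ndufa1, 5.12 for Cox6c, 1.80 for Sdhc and 1.29 for Sdhd and 355 and 240 called genes; samples sharing a number did not deviate together (correlations −0.14 to 0.02), so the numbers were not taken to pair them. Without 1 library the exact permutation tests of the ratios cannot go below p = 0.2. Because the tables hold picked genes, no alternative tests whether other respiratory genes changed.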

Other observations

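The shortest coding genes of the MGH-CP1 table, under a limit set afterwards, were all on the lower side. A limit of 300 coding bases, chosen after the values were seen, holds 8 of its 210 protein-coding genes with a coding sequence, and 8 were lower and 0 higher, beside 108 lower and 102 higher in all. The split holds for this limit only, and genes just above it were not counted. The histone genes Hist1h4d and Hist1h4k, which do not fall under it, were higher, with log2 changes of 1.95 and 1.63. In order of length they are Tomm7, Ndufa1, Atp5k, Spaar, Pet100, Gm10282, Fxyd6 and Cxcl10. Cxcl10 was near the floor (0.396 ± 0.686 against 8.22 ± 3.22) and had too few counts to test. Spaar was also low, at 16.5 ± 8.55 against 41.6 ± 7.76. Pet100, which helps to assemble cytochrome c oxidase and was not on the lists, stood at 113 ± 12.3 against 252 ± 22.2 (SD, n = 3), a log2 change of −1.16. Of the 5 shortest, Tomm7, Ndufa1, Atp5k and Pet100 encode mitochondrial proteins. Since the genes were singled out by their values, no test was made.

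The dinaciclib table holds 2 genes under the same limit, and they went opposite ways: Cox6c was higher, and Chchd7, a gene of the CHCH domain family of mitochondrial intermembrane space proteins, was lower at 18.6 ± 21.9 against 166 ± 9.75 (log2 change −3.01).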
